A study of Mus musculus with 12 samples.

Results

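Cldn13, Ces2g, Muc13, Tmem184a, Crisp3 and Parm1 are 6 genes grouped here under the name epithelial-type or secretory. They were followed in a mouse blood progenitor line that was given GATA1. They were chosen by name as genes with large changes in these data, so their differences are described without a test. Muc13 changed less, with GATA1 minus vector log2 differences of 0.51 at 18 h and -0.08 at 42 h. The 6 genes are 6 of 18193 genes with a probe set of a single symbol, and they have 8 of the array's 45101 probe sets. The cells were G1ME, a murine megakaryocyte-erythrocyte progenitor line that lacks Gata1, and all groups share that background. Cells received either the MIGR1-GFP control vector or MIGR1-GFP carrying GATA1, and GFP-positive cells were collected by FACS at 18 h or at 42 h after transduction. Labels name 3 arrays in every group by the letters A, B and C. The 4 groups are vector at 18 h, GATA1 at 18 h, vector at 42 h and GATA1 at 42 h. Expression of GATA1 came from a retroviral vector in a single line, and only transduced cells were profiled.

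GATA1 is the zinc finger transcription factor needed for red cell and megakaryocyte maturation. It binds GATA motifs, often near motifs of KLF factors, and it activates some genes while repressing others. Among the 6 genes, Cldn13 encodes a claudin, a class of membrane proteins best known from tight junctions, and Muc13 and Parm1 encode membrane-anchored mucin-type glycoproteins. Ces2g encodes a carboxylesterase, an enzyme that hydrolyses ester bonds in lipids and drugs. Tmem184a encodes a multi-pass membrane protein, and Crisp3 encodes a cysteine-rich secretory protein known from exocrine glands.

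Across all arrays the values were linear intensities, with array medians from 8.05 to 8.29, so a reading near 8 is at the middle of the array and not far above its lowest readings. GATA1 42 h replicate A stood apart in its control probe sets. Its 18S ribosomal RNA reading was 12.4 on the log2 scale, against 4.79 to 10.6 on the 11 other arrays, and its actin 3′ minus 5′ difference was 0.80 against 0.38 to 0.55. Without that array the 42 h log2 differences were 5.03 for Cldn13, 6.05 for Ces2g, 3.40 for Tmem184a, -3.63 for Crisp3, -0.33 for Parm1 and -0.14 for Muc13. The Gata1 probe set read 3002 ± 284 with vector and 2334 ± 91.0 with GATA1 at 18 h, and 3137 ± 116 and 2044 ± 355 at 42 h (SD, n = 3 each). No label or file places this probe set relative to the deletion or the vector's insert, so the labels were not checked with it.

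The promoter sequences are shown because GATA1 acts through DNA motifs and the members differed in opposite directions. RefSeq (GRCm38.p6) gave 7 promoter windows for 5 of the 6 genes, Cldn13 being the other gene, and the 250 bases before the start are printed for one window of each, 5′ to 3′ on the gene's strand. Muc13 and Tmem184a had 2 windows each, and the printed window is the one holding more motif matches. Capitals mark matches on either strand to the GATA motif, written AGATAA with the variants AGATAG and also TGATAA and finally TGATAG, or to CCNCNCCC, a KLF-type motif.
Ces2g, chr8:104961468-104961717, plus strand: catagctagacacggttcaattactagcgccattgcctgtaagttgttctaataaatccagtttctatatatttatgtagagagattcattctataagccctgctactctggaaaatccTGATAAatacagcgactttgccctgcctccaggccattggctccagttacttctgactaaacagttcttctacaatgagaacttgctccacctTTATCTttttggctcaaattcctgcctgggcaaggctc
Muc13, chr16:33794239-33794488, plus strand: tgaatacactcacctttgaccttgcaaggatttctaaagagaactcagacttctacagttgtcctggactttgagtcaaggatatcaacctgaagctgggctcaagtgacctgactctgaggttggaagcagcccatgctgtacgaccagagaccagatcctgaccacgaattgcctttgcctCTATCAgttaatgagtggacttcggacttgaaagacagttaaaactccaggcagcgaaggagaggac
Parm1, chr5:91517450-91517699, plus strand: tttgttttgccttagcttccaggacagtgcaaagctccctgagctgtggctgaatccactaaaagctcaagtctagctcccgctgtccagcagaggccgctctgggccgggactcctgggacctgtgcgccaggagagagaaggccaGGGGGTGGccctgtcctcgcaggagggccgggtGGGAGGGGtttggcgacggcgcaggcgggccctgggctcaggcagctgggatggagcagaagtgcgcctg
Tmem184a, chr5:139814284-139814533, minus strand: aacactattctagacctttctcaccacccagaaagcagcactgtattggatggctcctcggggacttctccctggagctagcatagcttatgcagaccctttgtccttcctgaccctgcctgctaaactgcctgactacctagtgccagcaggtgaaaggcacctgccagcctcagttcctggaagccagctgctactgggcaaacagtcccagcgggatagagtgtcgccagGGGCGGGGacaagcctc
Crisp3, chr17:40242289-40242538, minus strand: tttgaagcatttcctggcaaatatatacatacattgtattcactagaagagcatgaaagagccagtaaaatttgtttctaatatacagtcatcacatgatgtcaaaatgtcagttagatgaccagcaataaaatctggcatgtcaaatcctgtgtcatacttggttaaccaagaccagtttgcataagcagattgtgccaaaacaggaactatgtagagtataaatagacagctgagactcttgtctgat

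The Ces2g sequence held TGATAA beginning 131 bases before the start and AGATAA, on the opposite strand, 38 bases before it. The Muc13 sequence held TGATAG on the opposite strand 67 bases before the start, and TGATAA on the opposite strand lay at base 17 after the start, beyond the printed part. Neither the Parm1 nor the Tmem184a windows held a GATA match, and the Crisp3 window held neither motif. KLF-type matches lay 103 and 70 bases before the Parm1 start and 17 bases before the Tmem184a start, with another at base 18 after it. A second Muc13 window held a KLF-type match 82 bases before its start, and a second Tmem184a window held none. In all, 9 matches were found in the 7 windows and 0 of them overlapped. GATA matches are common: 29.8% of all 32851 windows of 300 bases held one, and 19.6% of the 11245 windows of genes tested here did. For the KLF-type motif these shares were 49.5% and 66.3%. A match describes letters in a window and is not a measured binding site.

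Cldn13, Ces2g and Tmem184a were higher with GATA1 at both times, Crisp3 was lower at both times, and Muc13 and Parm1 were higher at 18 h only. At 18 h GATA1 and vector readings were apart for each of the 6 genes: 5 genes were higher with GATA1, where 5.48% of all 10759 genes tested were higher without overlap, and 1 was lower, where 9.94% were. At 42 h, 3 genes were higher and 2 lower without overlap, against 16.8% and 16.6% of all genes, and Muc13 overlapped. These counts follow from how the genes were picked, and nothing is read from them. All 6 genes passed the filter on low values, which required at least 3 of 12 arrays to read above their own median. Log2 differences below are of mean log2(intensity + 16), a scale on which 16 is added to each reading and which understates changes of dim genes. On that scale the median difference over all genes tested was -0.01 at 18 h and 0.00 at 42 h.

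**Figure D1:**
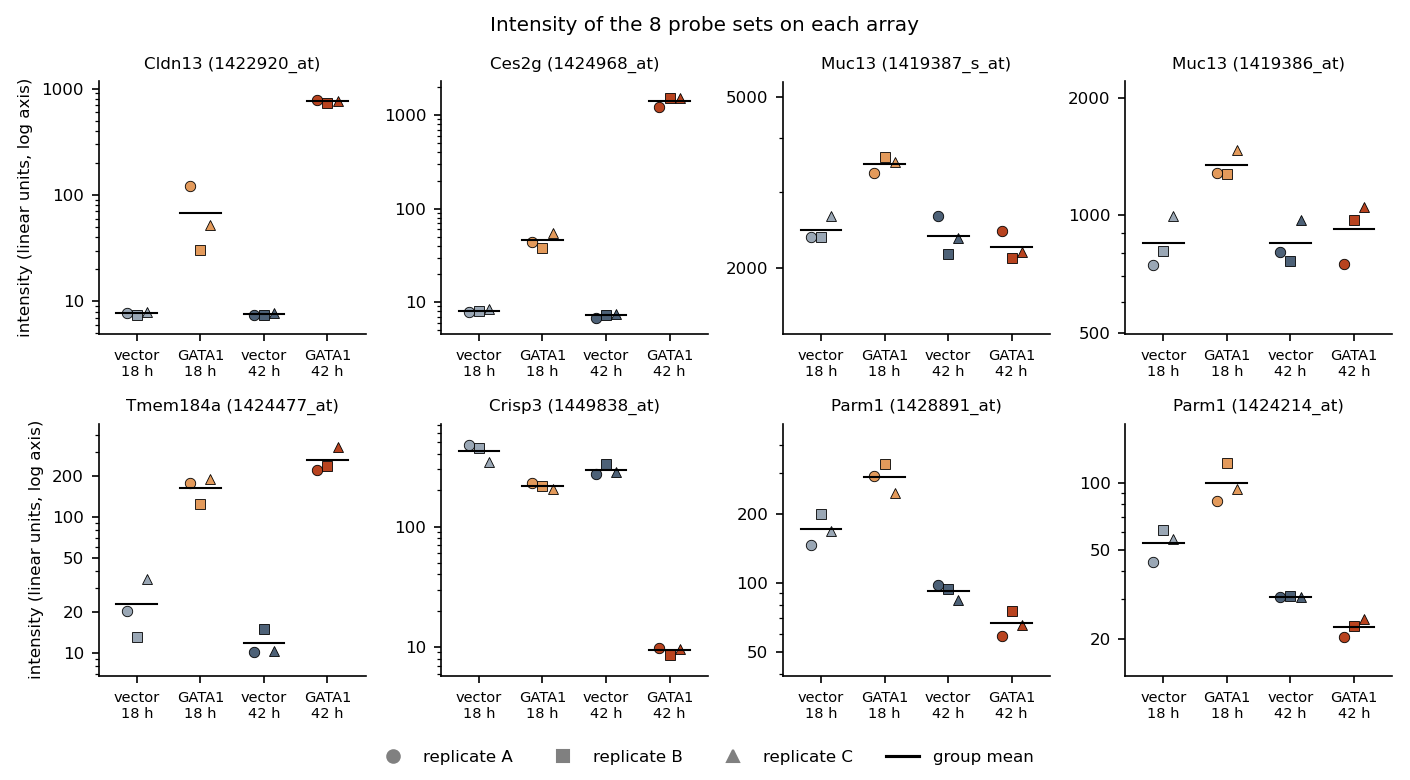
Intensity on each of the 12 arrays (log axis, linear intensity units) for the 8 probe sets of the 6 genes; points are arrays, shaped by replicate letter, and horizontal lines are means of 3 arrays. Cldn13 and Ces2g read under 9 on every vector array and above 700 on every GATA1 array at 42 h, while Crisp3 read under 10 on those GATA1 arrays.

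Cldn13, the claudin of the set, went from the middle of the array to a strong signal. Its probe set, 1422920_at, read 7.72, 7.51 and 7.88 on the vector arrays at 18 h and 7.40, 7.50 and 7.83 on those at 42 h. On the GATA1 arrays it read 123, 30.6 and 51.8 at 18 h and 778, 737 and 770.1 at 42 h. All 6 vector arrays lay below their own array's median, and every GATA1 array lay above all of them. The GATA1 minus vector log2 difference was 1.68 at 18 h and 5.04 at 42 h. The 3 GATA1 arrays at 18 h were spread widely, with a mean of 68.3 ± 48.2 (SD, n = 3), because replicate A was far above the others: without it the 18 h difference was 1.24. At 42 h the GATA1 mean was 762 ± 21.5 against 7.58 ± 0.226 with vector (SD, n = 3 each), and leaving out any one array gave 5.03 to 5.07. Vector arrays differed little over time, by -0.01 on the log2 scale, and their readings overlapped.

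Ces2g, the carboxylesterase, had the larger 42 h difference of the pair. Its probe set, 1424968_at, read 7.80, 7.96 and 8.53 with vector at 18 h and 6.86, 7.38 and 7.44 with vector at 42 h. With GATA1 it read 44.0, 38.2 and 55.1 at 18 h and 1223, 1528 and 1513 at 42 h. The GATA1 arrays at 18 h were close to each other and above every vector array, and those at 42 h were higher again. Group means were 8.10 ± 0.385 with vector and 45.8 ± 8.60 with GATA1 at 18 h, and 7.22 ± 0.320 and 1421 ± 172 at 42 h (SD, n = 3 each). The log2 difference was 1.35 at 18 h and 5.94 at 42 h, which placed Ces2g at rank 30 and rank 3 from the highest of the 10759 genes. Cldn13 stood at rank 15 and rank 8 in the same order. Leaving out any one array gave 1.24 to 1.44 for Ces2g at 18 h and 5.89 to 6.05 at 42 h.

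Tmem184a, the multi-pass membrane protein, had most of its 42 h difference by 18 h. Its probe set, 1424477_at, read 20.2, 12.9 and 34.9 with vector at 18 h and 176, 123 and 188 with GATA1. At 42 h it read 10.1, 15.0 and 10.3 with vector and 222, 235 and 324 with GATA1. Every GATA1 array was above every vector array at both times. The log2 difference of 2.22 at 18 h was the 5th highest of all genes tested, and that of 3.30 at 42 h the 23rd. Between 18 h and 42 h the GATA1 arrays differed by 0.63, without overlap, and the vector arrays by -0.44, with overlap. Means were 22.7 ± 11.2 and 162 ± 34.5 at 18 h, and 11.8 ± 2.79 and 260.3 ± 55.2 at 42 h (SD, n = 3 each).

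Crisp3, the secreted protein of the set, was the only member lower with GATA1 at 18 h. Its probe set, 1449838_at, read 478, 444 and 341 with vector at 18 h and 228, 216 and 205 with GATA1. At 42 h it read 274, 329 and 285 with vector, and with GATA1 it read 9.82, 8.61 and 9.65. The GATA1 arrays were below every vector array at each time, and at 42 h they were near the array median. The log2 difference was -0.90 at 18 h and -3.62 at 42 h, the 37th and the 6th lowest of all genes tested. Means were 421 ± 71.3 and 216 ± 11.1 at 18 h, and 296 ± 29.4 and 9.36 ± 0.654 at 42 h (SD, n = 3 each). Vector arrays were also lower at 42 h than at 18 h, by 0.48 on the log2 scale and without overlap, so each time was compared with its own vector group.

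Muc13, the cell-surface mucin known from the gut, was bright in every group, and its GATA1 and vector arrays were apart at 18 h alone. Its brighter probe set, 1419387_s_at, read 2353, 2357 and 2639 with vector at 18 h and 3312, 3613 and 3530.1 with GATA1. At 42 h it read 2635, 2145 and 2339 with vector and 2428, 2101 and 2174 with GATA1. The 18 h groups did not overlap and the 42 h groups did, with log2 differences of 0.51 and -0.08. The second probe set, 1419386_at, read 744, 812 and 995 with vector and 1282, 1281 and 1471 with GATA1 at 18 h. At 42 h this probe set read 807, 762 and 975 with vector and 749, 975 and 1049 with GATA1. Its differences were 0.66 at 18 h, with groups apart, and 0.12 at 42 h, with overlap. Both probe sets thus gave a higher 18 h reading with GATA1, while the sign at 42 h differed between them. Leaving out any one array moved the brighter probe set's 42 h difference between -0.15 and -0.01.

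Parm1, the other mucin-type gene, was higher with GATA1 at 18 h and lower at 42 h. Its brighter probe set, 1428891_at, read 146, 200.02 and 168 with vector at 18 h and 293, 329.8 and 245 with GATA1. At 42 h it read 98.4, 94.4 and 83.9 with vector and 59.0, 75.4 and 65.4 with GATA1. Neither pair of groups overlapped, and the log2 difference was 0.71 at 18 h and -0.39 at 42 h. The second probe set, 1424214_at, read 44.2, 61.0 and 55.8 with vector and 82.8, 123 and 93.8 with GATA1 at 18 h. At 42 h this probe set read 30.8, 30.9 and 30.9 with vector and 20.4, 22.7 and 24.4 with GATA1. It gave 0.72 and -0.28, again without overlap at either time. Of all genes tested, 15 (0.139%) were apart in this order, higher at 18 h and lower at 42 h. Parm1 was chosen for its changes on these arrays, so nothing is read from that share. Parm1 was also lower over time in the vector arrays, by 0.78 in the brighter probe set and 0.57 in the second. Among the GATA1 arrays the 42 h minus 18 h difference was -1.88 and -1.57.

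Set side by side, the times gave a larger difference at 42 h than at 18 h for Cldn13, Ces2g, Tmem184a and Crisp3, an overlap at 42 h for Muc13 and an opposite sign at 42 h for Parm1. The GATA1 minus vector difference at 42 h exceeded that at 18 h by 4.60 for Ces2g, 3.36 for Cldn13 and 1.07 for Tmem184a on the log2 scale. For Crisp3 the 42 h difference was lower by 2.72, and for Parm1 and Muc13 it was lower by 1.10 and 0.59. Within the GATA1 arrays, 3 members were higher at 42 h than at 18 h without overlap and 3 were lower, where 16.4% and 15.1% of all genes were. Within the vector arrays, 0 members were higher without overlap and 3 were lower, namely Ces2g, Crisp3 and Parm1, where 3.1% and 7.18% of all genes were. The Ces2g difference there was -0.05 and lay at the low end of the scale. Being higher without overlap at both times held for 3 members and for 3.93% of all genes, and being lower at both times held for Crisp3 and for 4.85%. These counts too follow from how the genes were picked, and nothing is read from them. The comparisons at 42 h and at 18 h use separate vector arrays, whereas those over time reuse the same arrays.

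**Figure D2:**
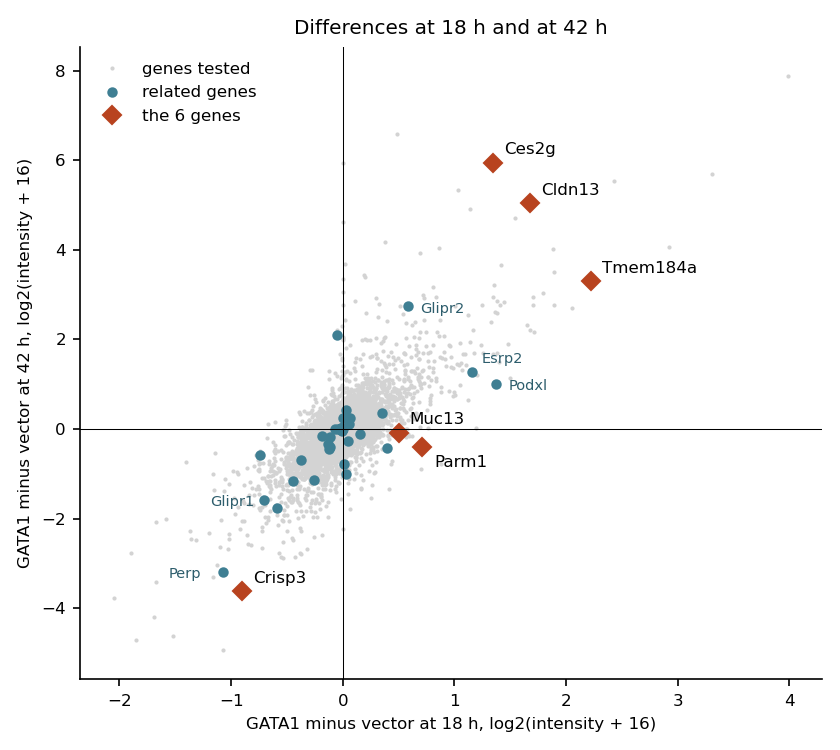
GATA1 minus vector difference at 42 h against that at 18 h, both on the log2(intensity + 16) scale; each point is a gene, with the 6 genes as diamonds and the 42 tested relatives in blue. Cldn13, Ces2g and Tmem184a lie at upper right, Crisp3 at lower left (-0.90, -3.62), and Parm1 and Muc13 to the right of 0 at 18 h and just below 0 at 42 h.

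How large a difference appeared for the dim members depended on the number added before taking log2. With 1 added, Cldn13 had differences of 2.76 at 18 h and 6.47 at 42 h, and with 64 added these were 0.82 and 3.53. Ces2g ranged likewise from 2.35 to 0.60 at 18 h and from 7.43 to 4.38 at 42 h. Tmem184a had 2.87 and 1.38 at 18 h and 4.35 and 2.08 at 42 h. Crisp3 was less affected at 18 h, at -0.94 and -0.78, where all of its readings were above 200, than at 42 h, at -4.84 and -2.29. Parm1 moved from 0.75 to 0.59 at 18 h and from -0.47 to -0.26 at 42 h. No difference of these 5 genes turned sign with the number added.

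**Figure D3:**
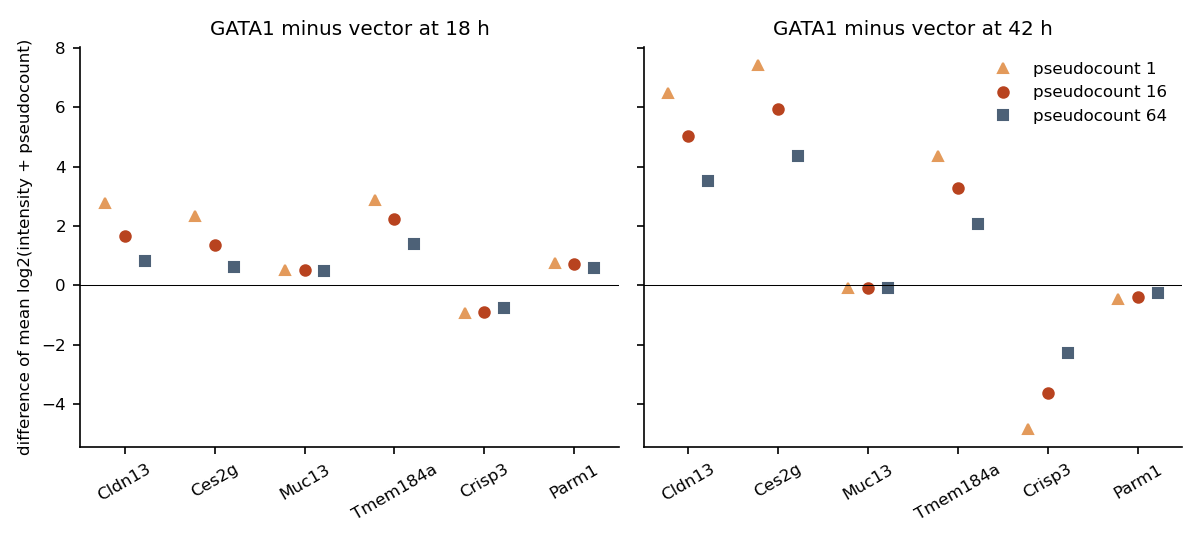
GATA1 minus vector difference for the 6 genes at 18 h (left) and 42 h (right) with 1, 16 or 64 added to each intensity before log2, as points with one colour and shape per number added. The size of the Cldn13 difference at 42 h moves from 6.47 to 3.53 while its sign stays the same.

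Over the 12 arrays the members fell into sets with like profiles, described here by Pearson's r of log2(intensity + 16), with arrays shared by every pair. Cldn13 and Ces2g gave 0.98, and each with Tmem184a gave 0.88 and 0.83. Crisp3 ran opposite to them, with -0.96 against Cldn13 and -0.99 against Ces2g. Muc13 and Parm1 gave 0.83 with each other and between -0.51 and -0.18 with Cldn13 and Ces2g. These values mostly restate the group means above.

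Outside the set, the genes with the profile most like each member were found among all genes tested. Cldn13 was closest to Parvb (r = 0.996), which encodes a focal adhesion protein and read 5.47 to 5.94 with vector at 18 h, 26.1 to 77.3 with GATA1 at 18 h and 420.3 to 754 with GATA1 at 42 h. Gtf2a2 (0.989) and Fam241a (0.987) followed. Ces2g was closest to Gnaz (0.996), a G protein alpha subunit gene, Sardh (0.996), the sarcosine dehydrogenase gene, and Sptb (0.994), the erythroid beta spectrin gene. Tmem184a was closest to Slain2 (0.983), Thbs1 (0.980), the thrombospondin gene, and Epor (0.978), the erythropoietin receptor gene. Epor read 25.4 to 59.2 with vector and 169 to 197.5 with GATA1 at 18 h, and 362 to 659 with GATA1 at 42 h. Crisp3 was closest to Coro2a (0.994), Arhgap15 (0.992) and Tax1bp1 (0.990). Coro2a read 2110 to 2445 with vector at 18 h and 326 to 371 with GATA1 at 42 h. Muc13 was closest to Diaph1 (0.950), the immediate early gene Egr1 (0.931) and Rasa3 (0.916). Egr1 read 626 to 862 with vector and 1515 to 1798 with GATA1 at 18 h, but 508 to 714 with GATA1 at 42 h. Parm1 was closest to 1700006J14Rik (0.956), Hgfac (0.949), which encodes an activator of hepatocyte growth factor, and Siglecf (0.947). Hgfac read 82.8 to 93.6 with vector and 115 to 124 with GATA1 at 18 h, and 36.2 to 58.6 and 17.7 to 40.6 at 42 h.

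Relatives of the members were examined next, to see what each family did. For 8 lists of related genes, 157 genes in all with the members left out, 131 had a probe set and 42 passed the filter. At 18 h, 3 of the 42 (7.14%) passed limma's test at an adjusted p of 0.05, against 1.85% of all genes. At 42 h, 14 of 42 (33.3%) did, 4 higher and 10 lower, against 20.9%. The median log2 difference of the 42 was -0.01 at 18 h and -0.00 at 42 h, close to that of all genes. With the replicate letter in the fit these counts were 5 and 17. At 42 h that fit added Cd24a (2.09, limma adjusted p = 3.11e-04), Pkp2 (-0.77, limma adjusted p = 0.0302) and Hpn. The 18 h count fell to 0 without GATA1 18 h replicate A or replicate B, and to 1 without vector 18 h replicate B or replicate C.

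In the families of Cldn13 and Ces2g most other genes were dim. Of 23 other claudin and claudin-like genes, 20 were below the filter and read at most 8.02 on any array, and of the 3 tested 0 passed limma's test at either time, with 0 at an unadjusted p under 0.05. The brightest were Cldn12, at 319 ± 48.9 with vector and 379 ± 40.5 with GATA1 at 42 h (SD, n = 3; limma adjusted p = 0.240), and Cldnd1, at 390.5 ± 145 and 479 ± 27.3 (limma adjusted p = 0.486). Of 12 other carboxylesterase genes, none read above 9.77 on any array. Of the 3 tested 0 passed limma's test at either time, with 0 at an unadjusted p under 0.05. They included Ces1e, at 9.11 with vector and 9.16 with GATA1 at 42 h, and Ces1d, at 8.63 and 8.62.

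Among other mucins and sialomucins, 8 of 19 with a probe set were tested. Of these 8, 12.5% passed at 18 h and 62.5% at 42 h, against 1.85% and 20.9% of all genes. At 18 h, 1 passed: Podxl, a sialomucin of kidney podocytes and blood progenitors, was higher with GATA1 by 1.37 ± 0.22 (log2 difference ± SE; limma adjusted p = 0.0142), at 6938 ± 365 against 2775 ± 949. At 42 h Podxl was higher by 1.01 ± 0.22 (limma adjusted p = 0.0096) and 4 mucin-type genes were lower. Selplg, the P-selectin ligand on leukocytes, fell from 141 ± 29.9 with vector to 29.7 ± 2.43 with GATA1, a difference of -1.77 ± 0.21 (limma adjusted p = 2.50e-04). Spn, leukosialin, differed by -0.39 ± 0.09 (limma adjusted p = 0.0140), a call lost in 4 alternatives, with adjusted p up to 0.339: without GATA1 42 h replicate B, without replicate C, with the second brightest probe set and with only the arrays compared. Cd164 and Muc1 were lower by 0.33 and 0.18. The Podxl call was lost in 7 alternatives at 18 h, where its adjusted p ran from 0.0030 to 0.566, and at 42 h with the second brightest probe set (adjusted p = 0.523).

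Relatives of Crisp3 in the CAP superfamily moved both ways. Glipr1 fell at both times, from 7583 ± 622 to 4691 ± 877 at 18 h (-0.70 ± 0.13; limma adjusted p = 0.0246) and from 5684 ± 95.8 to 1899.7 ± 205 at 42 h (-1.58 ± 0.13; limma adjusted p = 2.55e-05). Its 42 h call held in every alternative run, while that at 18 h was lost in 8, with adjusted p from 0.0045 to 0.830. Glipr2 rose at 42 h, from 39.2 ± 24.2 to 343 ± 129, by 2.74 ± 0.50 (limma adjusted p = 0.0038). The other 3 CAP genes tested did not pass. Of the 5 CAP genes tested, 1 passed limma's test at 18 h, against 1.85% of all genes. At 42 h, 2 of the 5 passed, against 20.9% of all genes. Only 2 relatives of Tmem184a were tested. At 18 h 0 of them passed limma's test, with 1 at an unadjusted p under 0.05. At 42 h 1 of the 2 passed, against 20.9% of all genes, and the other did not. The gene that passed was Tmem184c, which fell from 1155 ± 88.4 to 718 ± 129, by -0.69 ± 0.14 (limma adjusted p = 0.0064). Its direction was opposite to that of Tmem184a.

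Most genes that define epithelial cells read below the middle of the array, so the epithelial name of the set is not borne out by its defining genes. Of 25 such genes with a probe set, 18 were below their array's median on all 12 arrays and only Esrp2 exceeded 100 on any. Cdh1 (E-cadherin) read 7.04 to 7.44, Krt8 6.48 to 6.66, Krt18 5.37 to 5.61 and Epcam 10.2 to 13.2 over all arrays. The summed level of the list was 270.0 to 348 with vector and 420.1 to 589 with GATA1 at 18 h, and 238 to 265 and 379 to 458 at 42 h. Esrp2, an epithelial splicing regulator, made up most of that difference: it rose from 142 ± 43.4 to 335 ± 87.6 at 18 h (1.15 ± 0.23; limma adjusted p = 0.0381) and from 94.1 ± 17.2 to 252 ± 42.1 at 42 h (1.28 ± 0.23; limma adjusted p = 0.0033). The 18 h call was lost in 11 alternatives, with adjusted p from 7.10e-04 to 0.9998. At 42 h it was lost in 1, the second brightest probe set (adjusted p = 0.646).

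Of 13 tight junction and desmosome genes tested, 4 fell and 1 rose with GATA1 at 42 h (38.5%, against 20.9% of all genes). Perp, a desmosome protein and p53 target, fell from 625 ± 127 to 55.9 ± 24.8, by -3.19 ± 0.24 (limma adjusted p = 1.82e-05). At 18 h it was at 745 ± 170.3 and 339.5 ± 15.0, with an adjusted p of 0.0664 that became 0.0118 with the replicate letter in the fit. Dsg2, a desmosomal cadherin, fell by -1.16 ± 0.24 at 42 h (limma adjusted p = 0.0069), while at 18 h its adjusted p was 0.682, or 0.0268 with the replicate letter. Tjp3 and Jup fell by -1.13 and -1.003, and Pkp4, an armadillo repeat protein of junctions, rose by 0.42 ± 0.12 (limma adjusted p = 0.0373), a call lost in 9 alternatives. Of 2 tested genes for epithelial serine proteases and inhibitors, 0 passed limma's test at 42 h, with 2 at an unadjusted p under 0.05. Hpn (hepsin), at 923 ± 35.0 with vector and 772 ± 59.9 with GATA1 at 42 h, had an adjusted p of 0.0952, or 0.0419 with the replicate letter. The difference between the 42 h and 18 h effects passed for 2 of the 42 related genes (4.68% of all genes did), Perp and Glipr1. The fit with the replicate letter added Cd24a (2.14), Glipr2 (2.16), Dsg2 (-0.72) and Selplg (-1.18). Between the vector groups 0 of the 42 passed limma's test (0.0186% of all genes did), with 2 at an unadjusted p under 0.05. With the replicate letter in the fit Cd24a and Esrp2 passed there, with 42 h minus 18 h differences of -1.55 and -0.50.

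**Figure D4:**
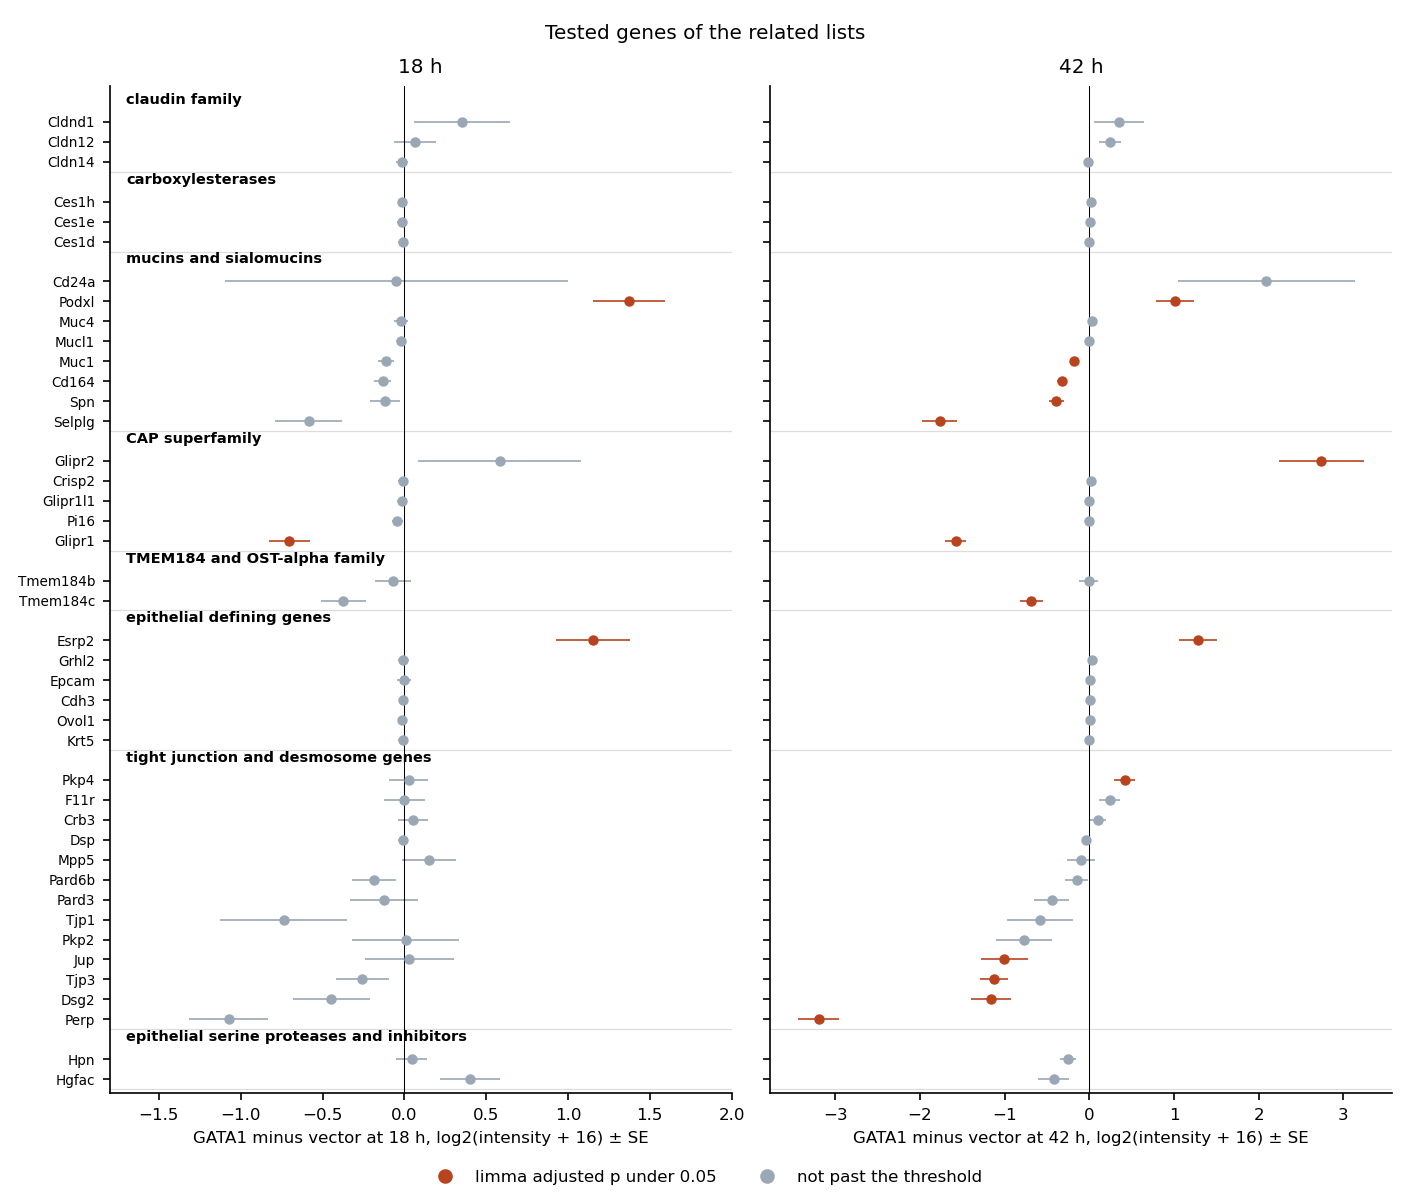
GATA1 minus vector difference (log2(intensity + 16), ± SE from limma) for the 42 tested relatives at 18 h (left) and 42 h (right), grouped by list, on axes of different range; the legend separates genes past an adjusted p of 0.05. At 42 h Perp lies farthest to the left (-3.19) and Glipr2 farthest to the right (2.74), while no claudin or carboxylesterase relative is marked.

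Markers of blood lineages moved in the same arrays as the members. The summed level of 12 erythroid markers was 417 to 1572 with vector and 3904 to 5683 with GATA1 at 18 h, and 489 to 1007 and 33621 to 40731 at 42 h. All 11 erythroid markers tested were higher at 42 h and 3 were higher at 18 h, among them Klf1, at 239.7 ± 78.2 and 1859 ± 92.1 at 18 h and 242 ± 43.0 and 4231 ± 271 at 42 h. The embryonic globin Hbb-y read 58.3 ± 53.9 and 1063 ± 510 at 18 h, and 41.7 ± 13.8 and 13812 ± 4528 at 42 h. The 11 megakaryocyte markers summed to 18113 to 21862 and 27966 to 36728 at 18 h, and to 19645 to 20751 and 40004 to 49524 at 42 h. Pf4 was the brightest of these 11, reaching 19755. By limma's test 3 of the 11 were higher at 18 h, and at 42 h 6 were higher and 1 was lower. Of all genes, 1.85% passed at 18 h and 20.9% at 42 h. Cldn13, Ces2g and Tmem184a were higher on the same arrays, and the part of lineage makeup in their readings was not tested. In bulk samples fewer cells of a type and less RNA per cell cannot be told apart.

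Mast cell and granule markers were set beside Crisp3. The 10 mast cell markers summed to 1504 to 2211 with vector and 811 to 943 with GATA1 at 18 h, and to 1574 to 2644 and 88.3 to 123 at 42 h, and 8 of the 10 were below their array's median throughout. Most of that sum was Cpa3, a mast cell protease, at 2008 ± 541 with vector and 49.9 ± 15.9 with GATA1 at 42 h. Of 15 neutrophil granule genes, 12 were below their array's median on all arrays and the list summed to 179 to 272 and 123 to 153 at 42 h. Mpo fell at 42 h by -2.67 ± 0.41 (limma adjusted p = 0.0013), from 148 ± 48.9 to 9.0 ± 2.80, whereas Prtn3 rose from 23.5 to 63.5. Ltf read no higher than 4.08 and Ngp no higher than 4.28 on any array. Of 7 progenitor markers tested, 2 rose and 1 fell at 18 h, and 2 rose and 3 fell at 42 h. By limma's test 42.9% of these 7 passed at 18 h and 71.4% at 42 h, against 1.85% and 20.9% of all genes. The 8 with a probe set summed to 18026 to 23502 with vector and 25847 to 30188 with GATA1 at 18 h, and to 19703 to 22273 and 22387 to 25760.4 at 42 h. Kit, the stem cell factor receptor and one of those that fell, went from 631 ± 173 to 42.9 ± 2.18 at 42 h. Of 9 endothelial markers, 4 exceeded 100 on some array, and of 6 tested 1 rose and 1 fell at 42 h (33.3%, against 20.9% of all genes). That list summed to 1165 to 1639 with vector and 1282 to 1792 with GATA1 at 18 h, and to 1089 to 1569 and 1028 to 1441 at 42 h, while its member Cdh5 read 4.72 to 4.78. Fibroblast markers summed to between 65.5 and 68.3 in every group, with Col1a1 at 7.37 to 7.69. The part of these cell types in the Crisp3 readings was not tested.

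The nearest tested gene on each side of each member was read for changes shared over a neighbourhood. Annotated genes lying between them were not tested. Of 12 nearest tested neighbours, 0 passed limma's test at 18 h, with 3 at an unadjusted p under 0.05, and 2 passed at 42 h, 1 higher and 1 lower. The shares of all genes that passed were 1.85% at 18 h and 20.9% at 42 h. Mafk, next to Tmem184a with 0 annotated genes between them and encoding a small MAF partner of NFE2, was at 161 ± 2.22 with vector and 279 ± 33.1 with GATA1 at 42 h, higher by 0.73 ± 0.10 (limma adjusted p = 7.67e-04). At 18 h it was at 174 ± 24.0 and 239 ± 11.9 (limma adjusted p = 0.0804). Cbfb, which encodes the partner of RUNX factors and is 7 genes from Ces2g, fell at 42 h by -1.61 ± 0.07 (limma adjusted p = 4.75e-07), from 3937 ± 31.6 to 1279 ± 104, opposite to Ces2g. At 18 h Cbfb was at 3895 ± 240 and 3295 ± 180 (limma adjusted p = 0.165, or 0.0341 with the replicate letter). On the other side of Ces2g, 17 genes separate it from Ciao2b, which differed by 0.14 at 42 h (limma adjusted p = 0.336). Near Cldn13, with 1 gene between, Mettl27 had a limma adjusted p of 0.280 at 18 h, or 0.0406 with the replicate letter. On its other side, with 4 genes between, Limk1 differed by -0.28 at 42 h (limma adjusted p = 0.480). The other neighbour of Tmem184a, Psmg3, had an adjusted p of 0.296 at 42 h, or 0.0402 with the replicate letter. Heg1 and Itgb5 near Muc13, Pgk2 and Crisp2 near Crisp3 and Btc near Parm1 read 8.41 to 10.6 on all arrays. In that order, 1, 1, 0, 12 and 2 genes separate them from the member. Rchy1, the other neighbour of Parm1, with 9 genes between, did not pass at either time.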

How the data were processed

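Total RNA of FACS-sorted G1ME cells was hybridised to 12 Affymetrix arrays, 3 per group. The deposited table holds linear intensity values of 45101 probe sets, made by the authors with GCRMA and MAS5 per the submitters' processing notes, which give no versions and do not say which values came from which. Here 16 was added to each intensity and log2 taken. Probe sets were named through the platform annotation (34945 with 1 symbol, 932 with several, which were left out). A comparison with RefSeq changed 0 symbols. Each gene is represented by its probe set of highest mean log2 value, and 10759 of 18193 genes passed the filter of at least 3 of 12 arrays above the array median. The number of arrays limits the precision.

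One model over the 4 groups was fitted to all genes with limma 3.58.1 in R 4.3.3 (lmFit, eBayes, two-sided, Benjamini-Hochberg over all genes, threshold 0.05). It was also run on simulated data with independent noise on each array. That run held no deviation shared by arrays of one letter, so it does not cover such deviations. The members, lists and neighbours were chosen with earlier results of these data known, and the members were tested nowhere. Named are all members, up to 2 genes rising and 2 falling most in each list and time, or the 2 brightest where none passed, Cdh1, Epcam, Krt8 and Krt18, the nearest tested neighbours, the 3 genes most like each member and 10 cell type markers. Tjp3, Jup, Cd164, Muc1, Prtn3, Cd24a and Pkp2 were named after their values were seen.

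The labels call the arrays biologic triplicates, lettered A to C. Arrays of one letter deviated together from their group means between vector and GATA1 at 18 h (correlations 0.31 to 0.66), between vector and GATA1 at 42 h (0.24 to 0.60) and between the vector groups (0.35 to 0.54), a hint from the data and not the design. The p-values given come from the fit without the letter unless the letter is named. For related genes and neighbours, the fit with the letter as a block is given where it changed the call. Between vector at 18 h and GATA1 at 42 h the letter correlations ran from -0.11 to 0.45. Those of GATA1 at 18 h ran from 0.12 to 0.49 with vector at 42 h and from 0.05 to 0.61 with GATA1 at 42 h. Letter B was the lowest in each of these other pairs. Alternatives were other added numbers, filters, probe sets, quantile scaling, array weights, a fit on only the arrays compared, the replicate block and leaving out each array. Protein sequences were not used here.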

Additional observations from a re-analysis of the deposited data

Results flagged for a closer look

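Some GATA1 effects differed between 42 h and 18 h by limma's interaction term (difference of the log2 differences, 42 h minus 18 h, 3 arrays per group). Among relatives and neighbours of the members the value was -2.12 for Perp (limma adjusted p = 0.0083), -0.88 for Glipr1 (0.0242) and -1.37 for Cbfb (5.82e-05). The Perp value passed in every alternative run, and the Glipr1 value did not in 7, with adjusted p from 0.0149 to 0.598. Among blood lineage markers it was 3.89 for Hbb-y, -1.75 for Kit and -3.86 for Cpa3.

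For Parm1 every GATA1 array was above every vector array at 18 h and below every one at 42 h, with a difference between times of -1.10 in probe set 1428891_at and -1.01 in probe set 1424214_at. That difference was not tested, since Parm1 was chosen for its changes on these arrays.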

How the results depend on the processing

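The members' GATA1 minus vector differences were followed under other added numbers, quantile scaling, second brightest probe sets and leaving out single arrays. They kept their sign there, with 1 exception: the second probe set gave Muc13 0.12 at 42 h, against -0.08. For the members, array weights and leaving out every array A were not examined. The Muc13 difference between the vector groups, -0.05, changed sign without vector 18 h replicate C (0.0058) and without vector 42 h replicate B (0.02). The counts of related genes moved more. At 18 h, where 3 of 42 passed, the count was 5 with the replicate block, 1 without a filter on low values (131 genes), 0 with second brightest probe sets (31 genes), 0 when the fit held just the 2 groups, and 1 when every array A was left out, which was added after seeing the data; leaving out single arrays gave 0 to 4. At 42 h, where 14 passed, second brightest probe sets gave 9, the replicate block 17 and leaving out single arrays 11 to 15. For the difference between times, where 2 passed, the count was 1 without a filter, 4 with a stricter one, 6 with the replicate block and 5 with array weights; leaving out single arrays gave 1 to 2, with 1 without vector 42 h replicate A, vector 42 h replicate B or GATA1 42 h replicate C. Between the vector groups the replicate block gave 2 in place of 0, and leaving out single arrays gave 0 throughout. Apart from the smaller number of genes under the second probe set and the stricter filter, the cause was not tested. Readings near the array median, as for Cldn13 and Ces2g with vector, have no reliable order, and the size of a difference from them varies with the number added.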
